A study of Homo sapiens with 14 samples.

Results

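The 3' ends of protein-coding genes were examined in DRIP-seq peak lists of Nalm-6 cells, a human B cell leukemia line. In DRIP-seq, the antibody S9.6 pulls down RNA-DNA hybrids from fragmented DNA, and the recovered DNA is sequenced. A region was taken from 1 kb before to 1 kb after the 3' end of each protein-coding gene record (GENCODE version 44, GRCh38) on chromosomes 1 to 22 and X. Regions within 3 kb of the start of any protein-coding gene record were left out, to keep peaks at these starts from being counted for an end. Starts of other transcripts of a gene were not used, so a peak at an alternative promoter could still be counted. Of 19864 distinct 3' ends, 15260 were kept, and 39 of them were shared by more than 1 gene record. A region had a peak in a library when it shared at least 1 base with a peak of that library's list. Neighbouring ends can share a peak, since 2205 of the regions overlap another.

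The cells carried SF3B1 K700K (WT) or SF3B1 K700E (MT), in isogenic lines according to the study's methods. SF3B1 is a core protein of the U2 snRNP, which recognizes the branch site of introns. DNA from non-crosslinked cells was cut with the restriction enzymes HindIII, EcoRI, BsrGI, XbaI and SspI. Part of each preparation was kept untreated and part was treated with RNH1 (RNase H), which degrades the RNA strand of RNA-DNA hybrids. There were 2 libraries for each of WT untreated, MT untreated, WT RNH1 and MT RNH1. The labels do not say that replicates are separate cultures, so p-values measure only the spread between these libraries. The peak lists hold no RNA, and the B cell identity of the line could not be checked against marker expression.

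R-loops are structures in which RNA pairs with a DNA strand and displaces the other strand. At the ends of genes they can form when RNA polymerase II slows or pauses past the poly(A) signal. There, helicases such as senataxin unwind the hybrid, and the exonuclease XRN2 then degrades the remaining RNA, which helps to release the polymerase. G-rich stretches after the poly(A) site favour such pausing, and the genes of beta-actin and cyclin B1 are known examples of hybrids at the end of a gene.

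The number of reads behind each list is not given, so the sequencing depth is unknown. On the chromosomes used, the lists held 123582 and 130928 peaks for WT untreated, 253744 and 295970 for MT untreated, 34857 and 77391 for WT RNH1, and 201117 and 198158 for MT RNH1. The WT RNH1 replicates thus differed more than those of any other group. The strength of a peak is given as its fold enrichment, the ratio of its summit over the local background as the authors' peak caller computed it.

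The peaks at 3' ends often stopped at a site of an enzyme used to cut the DNA. Between 26.5% and 31.3% of the edges of these peaks lay within 10 bases of such a site, while 4.38% of all bases in the regions did. Of the ends where the highest peaks of the 2 MT untreated libraries overlapped, 65.6% of 1730 had an edge at the identical base in both. Of these identical edges, 76.5% were at a cut site, against 4.64% of the other edges. In the WT untreated libraries, 73.3% of 701 ends shared an edge, with 65.2% of identical edges and 7.96% of the others at a site. Depending on the library, between 95.8% and 99.6% of the peaks had no site inside them, away from their edges. The following 7 stretches from hg38 show such edges past genes named in the results below. Each lies outside every annotated exon, is written 5' to 3' on the gene's strand and has the site in capitals.

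DAPK1, chr9:87708884-87708979, + strand, HindIII: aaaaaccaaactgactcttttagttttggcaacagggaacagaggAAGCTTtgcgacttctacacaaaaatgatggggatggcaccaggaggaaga
THRB, chr3:24116625-24116720, - strand, BsrGI: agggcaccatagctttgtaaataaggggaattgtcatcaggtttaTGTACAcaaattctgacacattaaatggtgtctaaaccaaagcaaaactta
BDNF, chr11:27654377-27654472, - strand, SspI: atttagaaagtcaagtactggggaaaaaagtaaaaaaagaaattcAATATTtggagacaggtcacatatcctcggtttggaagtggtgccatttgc
SEL1L3, chr4:25747102-25747197, - strand, HindIII: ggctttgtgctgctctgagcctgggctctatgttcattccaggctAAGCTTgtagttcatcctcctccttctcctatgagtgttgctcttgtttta
TRAT1, chr3:108855518-108855613, + strand, BsrGI: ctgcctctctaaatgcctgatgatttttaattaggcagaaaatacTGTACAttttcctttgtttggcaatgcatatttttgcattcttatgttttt
PREPL, chr2:44315964-44316059, - strand, XbaI: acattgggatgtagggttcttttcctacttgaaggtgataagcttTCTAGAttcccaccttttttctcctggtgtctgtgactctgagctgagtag
SLC35D2, chr9:96312540-96312635, - strand, SspI: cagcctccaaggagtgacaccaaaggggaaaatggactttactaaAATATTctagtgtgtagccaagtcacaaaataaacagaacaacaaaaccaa

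In DAPK1 the peak edge at base 87708933 was identical in all 5 lists with a peak, 299 bases past the end. In THRB, 4 of 4 lists ended at base 24116671, 482 bases past the end. In SLC35D2, 8 of 8 lists ended at base 96312587, 857 bases past the end. In BDNF, SEL1L3, TRAT1 and PREPL, both lists with a peak shared the edge, at 469, 282, 562 and 271 bases past the end.

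The first comparison asked how often 3' ends had a peak. Among WT untreated libraries, 1090 and 1153 ends had a peak, which is 7.14% and 7.56%. Among MT untreated libraries, 2252 and 2531 ends had a peak, which is 14.8% and 16.6%. After RNH1, 244 and 560 ends (1.60% and 3.67%) had a peak in WT, and 1315 and 1308 ends (8.62% and 8.57%) in MT. Peaks at 3' ends made up a small part of each list, between 0.872% and 0.904% of untreated and between 0.662% and 0.718% of RNH1 peaks. Their median fold enrichment, from 4.27 to 5.17, was close to that of all peaks in the same list, from 4.30 to 5.11.

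The ends were compared with other regions of the same length. Of 1454146 genome tiles without unknown bases, 10.3% and 10.96% had a peak in WT untreated and 20.7% and 23.8% in MT untreated. The share at 3' ends was thus 0.692 and 0.689 of that in tiles for WT, and 0.713 and 0.697 for MT. Regions around the middle of the same 15260 genes had a peak in 8.33% and 9.004% (WT) and 17.7% and 19.9% (MT) of cases. Regions around the starts of these genes had 4.55% and 5.01% in WT and 11.8% and 12.6% in MT. So 3' ends had fewer peaks than gene middles and more than gene starts in all 4 untreated libraries. The regions at gene starts were not matched to the ends for GC content. The ends fell below the gene middles by 2.21 percentage points on average (SD 1.05, n = 4, lower in 4 of 4 libraries). The two-sided exact sign-flip permutation test gave p = 0.125, the smallest p that 4 libraries allow, and 0.25 after Benjamini-Hochberg adjustment over 10 tests. With the 30000 highest peaks of each list, the mean difference was -0.400 percentage points.

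**Figure D1:**
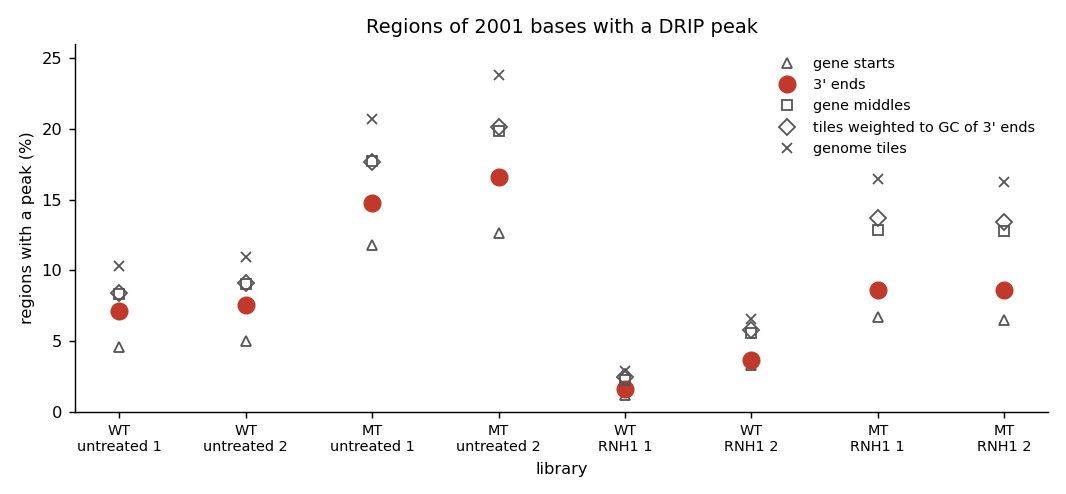
Percentage of regions of equal length with a DRIP peak (y axis) in each of the 8 libraries (x axis), with 1 point per library and kind of region. The 3' ends (filled circles) lie between gene starts and gene middles in every library, and below genome tiles even after the tiles were weighted to the GC content of the ends. Gene starts and gene middles are shown without such weights.

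The distance to the tiles was smaller once base composition was matched. The median GC content of the ends was 42.9%, that of the tiles 39.7% and that of the gene middles 43.1%. Tiles weighted to the GC content of the ends had a peak in 8.42% and 9.09% (WT) and 17.6% and 20.1% (MT) of cases. The ends had 0.849 and 0.831 of these shares in WT, and 0.837 and 0.825 in MT. Gene middles weighted in the same way still exceeded the ends by 1.39 and 1.58 percentage points in WT and by 2.53 and 2.90 in MT.

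The share of ends with a peak changed with GC content in a different way in WT and MT. In WT it was highest at the 1902 ends under 35% GC, at 13.4% and 12.9%, and fell to 5.02% and 5.30% at 45 to 50% GC. In MT it was 14.5% and 17.6% under 35% GC, rose to 21.8% and 25.4% at 35 to 40%, and was 12.99% and 12.95% at 45 to 50%. At the 718 ends with 60% GC or more, WT had 0.696% and 2.23% and MT 0.418% and 0.836%. The genome tiles had the same order over GC content, so this shape was not particular to 3' ends. The difference between the genotypes in this shape was not tested.

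**Figure D2:**
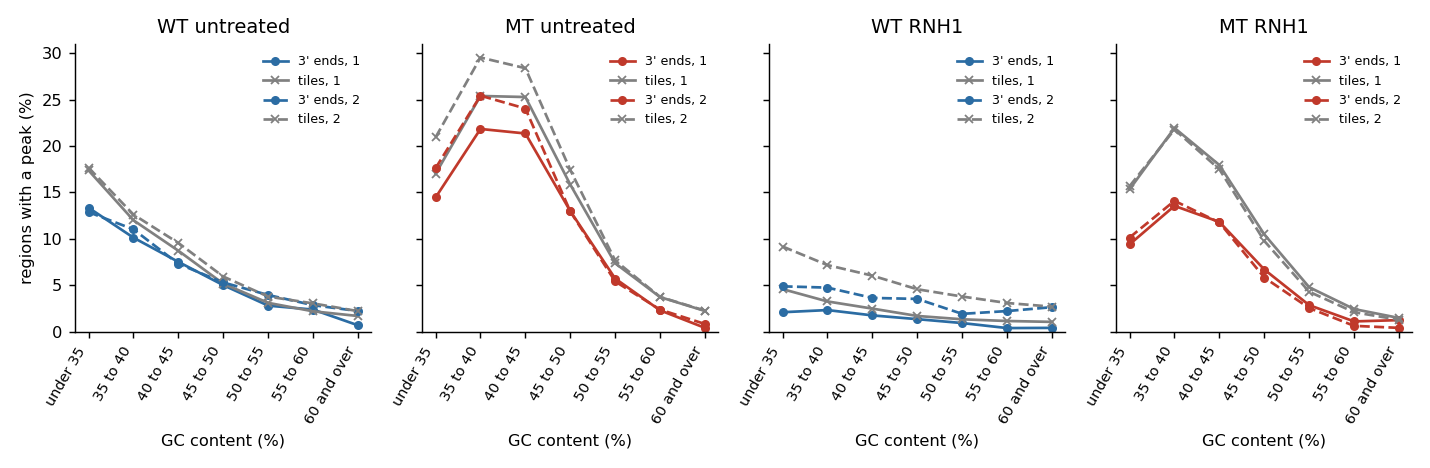
Percentage of 3' ends (colour) and of genome tiles (grey) with a peak (y axis) by GC content of the region (x axis), with 1 line per library (solid, replicate 1; dashed, replicate 2) and 1 panel per group. WT untreated values fall from the lowest GC content onward, while MT values are highest between 35 and 45% GC, in ends and tiles alike.

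The second comparison asked whether the genotypes differed at 3' ends. The mean share of ends with a peak was 7.35% ± 0.292 (SD, n = 2) for the WT libraries. For the MT libraries it was 15.7% ± 1.29 (SD, n = 2), a difference of 8.32 percentage points. The groups did not overlap, and the exact permutation test gave p = 0.333, the smallest that 2 against 2 libraries allow (adjusted p = 0.370). The difference moved with the length of the lists. A cut of all lists to equal length removes any genome-wide excess of MT peaks by design, so it does not test this difference. When each list was cut to its 30000 peaks of highest −log10 p, 245 and 247 ends had a peak in WT and 240 and 264 in MT, a difference of 0.0393 percentage points. Relative to tiles, the log2 ratio of the end share over the tile share was -0.53 and -0.54 for WT and -0.49 and -0.52 for MT. The log2 difference between the genotypes was 0.03, with p = 0.333 in the exact permutation test (adjusted p = 0.370), and its sign turned with tiles weighted for GC content, to -0.0155. The higher number of MT ends with a peak was thus matched by a higher number of MT tiles with a peak.

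Bona fide peaks were defined as untreated peaks without any overlap with the RNH1 list of the same number in that genotype. Among WT libraries 932 and 847 ends had a bona fide peak (6.11% and 5.55%), and among MT libraries 1354 and 1570 (8.87% and 10.3%). The groups did not overlap and differed by 3.75 percentage points (exact permutation p = 0.333, adjusted p = 0.370). With lists of 30000 peaks each, the difference was -0.0328 percentage points, so this difference also moved with the length of the lists. Here too, equal lengths remove a genome-wide excess by design.

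The third comparison asked how RNH1 changed the peaks at 3' ends. The share of ends with a peak was lower after RNH1 by 5.54 and 3.89 percentage points in the WT pairs and by 6.14 and 8.01 in the MT pairs. The mean decrease was 5.90 percentage points (SD 1.70, n = 4 pairs, all 4 in this direction), with p = 0.125 in the exact sign-flip permutation test (adjusted p = 0.25). The pairs rest on the replicate numbers, and without them the exact permutation test gave p = 0.171. The decrease was 2.36 percentage points larger in MT than in WT, with p = 0.333 in the exact permutation test over pairs (adjusted p = 0.370). Relative to the untreated list, WT RNH1 replicates 1 and 2 held 22.4% and 48.6% as many ends with a peak. The MT RNH1 replicates held 58.4% and 51.7% as many. The relative decrease was thus larger for WT, and its difference between the genotypes was not tested. With 30000 peaks in each list, the mean decrease was 0.287 percentage points and the difference between the genotypes 0.0623. Equal lengths also remove a genome-wide loss of peaks after RNH1 by design. Without the second WT or the second MT untreated replicate, the latter was 1.53 or 1.43.

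RNH1 lists were poorer in 3' ends than untreated lists, beyond their smaller number of peaks. The end share was 0.551 and 0.561 of the tile share in WT RNH1 and 0.523 and 0.528 in MT RNH1, against 0.689 to 0.713 in the untreated libraries. The log2 ratio over tiles was higher in the untreated library of each pair, by 0.33 and 0.30 in WT and by 0.45 and 0.40 in MT. The mean log2 difference was 0.37 (SD 0.07, n = 4 pairs, positive in 4 of 4), with p = 0.125 in the exact sign-flip permutation test (adjusted p = 0.25). Without the pairs, the exact permutation test over 4 against 4 libraries gave p = 0.0286, unadjusted, the smallest it allows. With tiles weighted for GC content, the end share was 0.825 to 0.849 of the tile share in untreated libraries and 0.630 to 0.645 in RNH1 libraries. With 30000 peaks in each list, it was 0.582 to 0.636 of the tile share in untreated libraries and 0.472 to 0.529 in RNH1 libraries, which did not overlap either. At gene starts the share was 0.441 and 0.457 (WT) and 0.570 and 0.530 (MT) of the tile share in untreated libraries. After RNH1 it was 0.393 and 0.506 (WT) and 0.406 and 0.401 (MT). Gene starts thus also fell relative to tiles, except in the second WT pair.

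The difference at 3' ends also appeared as the share of peaks that were bona fide. In WT, 85.0% and 72.2% of the untreated peaks at 3' ends were bona fide, against 81.9% and 65.8% of all peaks. In MT it was 59.0% and 60.3% of the peaks at 3' ends, against 49.1% and 51.2% of all peaks. The share was higher at 3' ends in all 4 libraries, by 7.14 percentage points on average (SD 3.09, n = 4), with p = 0.125 in the exact sign-flip permutation test (adjusted p = 0.25). Among all peaks weighted to the GC content of those at 3' ends, 82.5% and 66.8% (WT) and 50.9% and 52.7% (MT) were bona fide. Peaks at gene middles were bona fide in 83.4% and 65.9% (WT) and 51.3% and 52.0% (MT). Peaks at gene starts were close to those at 3' ends, at 85.5% and 73.2% (WT) and 60.7% and 59.7% (MT), so a high bona fide share was not particular to 3' ends. A short RNH1 list leaves more untreated peaks bona fide, and the WT RNH1 list of replicate 1, with 34857 peaks, was the shortest.

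**Figure D3:**
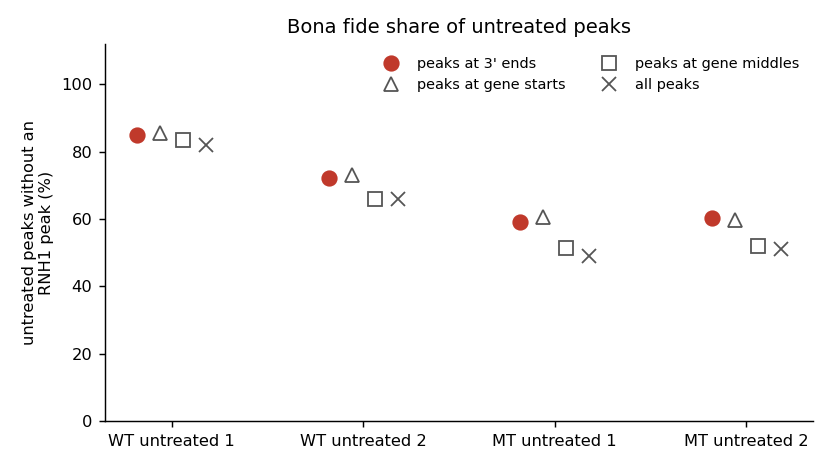
Percentage of untreated peaks that share no base with a peak of the paired RNH1 list (y axis) in each untreated library (x axis), for peaks at 3' ends (filled circles), gene starts, gene middles and all peaks. In each of the 4 libraries the value at 3' ends is above that of all peaks, for example 60.3% against 51.2% in MT untreated replicate 2, and close to that at gene starts.

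The fourth comparison asked where around the end the peaks lay. In MT untreated libraries, 2.95% and 3.43% of the bases in the last 1 kb of the gene were under a peak, and 3.598% and 3.97% of the bases in the 1 kb after it. In WT untreated libraries the values were 1.505% and 1.598% before the end and 1.54% and 1.67% after it. Coverage after the end was higher in all 4 libraries, by 0.324 percentage points on average (SD 0.316, n = 4), with p = 0.125 in the exact sign-flip permutation test (adjusted p = 0.25). The difference was 0.0320 and 0.0749 percentage points in WT and 0.650 and 0.538 in MT, and the mean was 0.215 without the first MT replicate and 0.0585 with 30000 peaks in each list. Over 2 kb to each side the mean was 0.288, but not every library kept this direction (exact permutation p = 0.25). The RNH1 libraries had 0.296% and 0.704% (WT) and 1.64% and 1.56% (MT) before the end and 0.307% and 0.785% (WT) and 2.08% and 2.03% (MT) after it.

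The last 200 bases of the gene were the least covered stretch of the 8 kb around the end in both MT untreated and all 4 RNH1 libraries. In MT untreated libraries 2.59% and 3.15% of these bases were under a peak, against 3.87% and 4.42% at 2.8 to 4 kb from the end. In MT RNH1 libraries it was 1.56% and 1.40%, against 2.76% and 2.62%. In WT untreated libraries, 1.44% and 1.59% of the last 200 bases were covered, and their lowest values, 1.36% and 1.48%, lay 2 kb before the end. The last 200 bases were also the most AT-rich, with a GC content of 39.2% against 45.7% at 4 kb before the end. The part of base composition in the lower coverage was not tested.

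**Figure D4:**
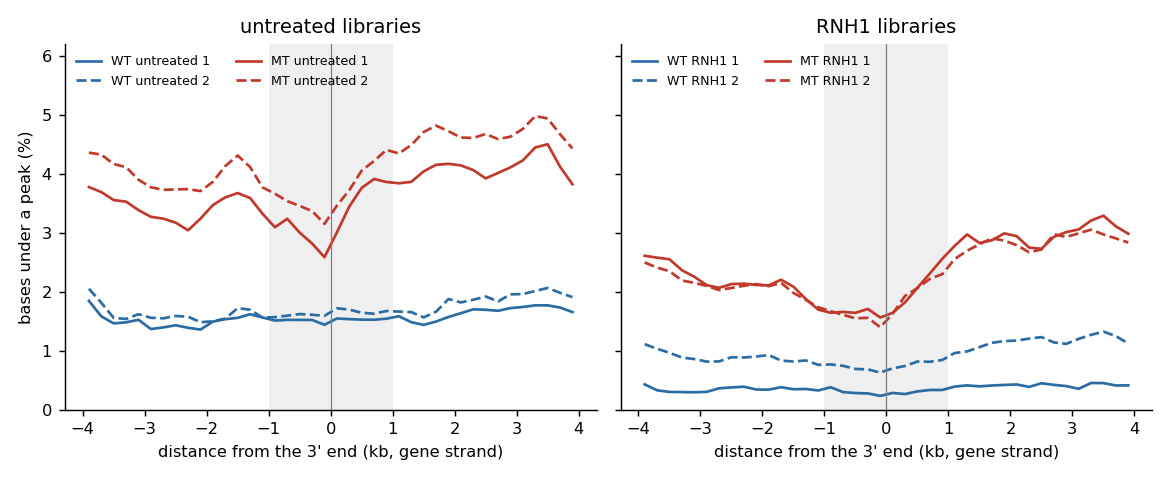
Percentage of bases under a peak (y axis) by distance from the 3' end in kb on the gene's strand (x axis; negative values are inside the gene), in bins of 200 bases, over 15260 ends, with 1 line per library. The grey band marks the 1 kb to each side. MT untreated and RNH1 coverage is lowest in the last 200 bases of the gene and rises after it, while WT untreated coverage stays between 1.36% and 2.06%.

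Own exons made up 41.4% of the bases in the regions, own introns 8.63%, stretches past the end in another protein-coding record 11.5% and the rest past the end 38.5%. In MT untreated libraries, 2.83% and 3.36% of exon bases were covered, against 3.51% and 3.81% of intron bases and 3.71% and 4.10% of bases past the end outside other records. In WT untreated libraries these values were 1.48% and 1.57%, 1.64% and 1.73%, and 1.59% and 1.74%. In all 8 libraries intron bases were covered more than exon bases, for example 2.10% and 2.14% against 1.55% and 1.44% in MT RNH1. The summit of the highest peak of a region lay past the end in 50.6% and 52.5% of ends with a peak in WT untreated, in 54.3% and 53.9% in MT untreated, and in 57.2% and 57.3% in MT RNH1.

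G-rich RNA favours stable hybrids, so the GC skew, (G - C) / (G + C) on the gene's strand over the 1 kb after the end, was compared between ends with and without a peak. It averaged 0.0119 and 0.0121 with and 0.00991 and 0.00989 without a peak in WT. In MT it averaged 0.00718 and 0.00893 with and 0.0106 and 0.0103 without a peak. The mean difference over 4 libraries was -0.000121 (SD 0.00272), positive in 2 and negative in 2, with p = 1 in the exact sign-flip permutation test (adjusted p = 1). Before the end (1 kb), the skew was higher at ends with a peak in all 4 libraries. For WT it was 0.0131 and 0.0105 with and 0.00432 and 0.00449 without a peak. For MT it was 0.00918 and 0.0115 against 0.00421 and 0.00365 (not tested). The 3815 ends with the lowest and the 3815 with the highest skew after the end had a peak more often than the rest. A difference of means can miss this. In WT untreated replicate 1 the shares were 7.60% and 7.73%, against 6.55% and 6.68% between. The hexamers AATAAA or ATTAAA were found in the last 40 bases before the end, on the gene's strand, in 72.2% of all ends, in 73.7% of ends with any untreated peak and in 71.8% of those with no peak in any list.

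The length of the gene, its neighbours and its splicing reads in another cell line were set beside the shares as a description. The 3815 ends of the longest genes, from 89.2 kb, had a peak in 7.84% and 8.15% (WT) and 16.8% and 18.4% (MT) of cases, and the 3815 ends of the shortest genes, up to 15.3 kb, in 6.003% and 7.10% (WT) and 12.9% and 14.0% (MT). Their median GC contents were 39.98% and 46.9%. The 1068 ends with an opposite-strand 3' end within 2 kb, outside other records, had a peak in 4.87% and 6.74% (WT) and 9.55% and 11.2% (MT), and their median GC content was 49.8%. The 10959 ends with no such neighbour had 7.33% and 7.80% (WT) and 15.3% and 17.3% (MT), at a median GC of 42.3%. For 9468 ends, the gene had a splicing event measured in HEK293T cells, a human kidney line, and the authors' mean number of junction reads served as a rough measure of expression there. The share with a WT untreated peak was 6.93% and 7.10% at the 2367 ends with the fewest of these reads and 6.76% and 7.65% at the 2367 with the most, and for MT it was 15.2% and 16.3% against 14.7% and 16.1%. Expression in Nalm-6 cells was not analysed here.

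Ends on chromosome X had fewer peaks than ends on autosomes, as did its tiles. In WT untreated libraries 11 and 9 of 604 ends had a peak (1.82% and 1.49%), against 7.36% and 7.81% on autosomes. In MT untreated libraries it was 8.11% and 8.61%, against 15.03% and 16.9%. The tiles of chromosome X had 3.54% and 3.96% in WT and 8.48% and 10.9% in MT.

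At the level of single ends, replicates shared most of their ends with a peak, except for WT RNH1 replicate 2. Of the ends with a peak in WT untreated replicate 1, 67.8% also had one in replicate 2, and 64.1% of those of replicate 2 had one in replicate 1. For MT the shares were 79.9% and 71.1%, and for MT RNH1 73.7% and 74.1%. In WT RNH1, 79.1% of the ends of replicate 1 were found in replicate 2, but only 34.5% of those of replicate 2 in replicate 1. Replicate 1 had 244 such ends and replicate 2 had 560, which limits the second of these shares. An untreated peak in no library was found at 11643 ends (76.3%), in 1 library at 1337, in 2 at 1522, in 3 at 387 and in all 4 at 371. The last group made up 2.43% of ends, against 3.99% of tiles. A bona fide peak in all 4 libraries was found at 82 ends (0.537%), against 0.735% of tiles, and a peak in all 8 lists at 72 ends (0.472%), against 0.938% of tiles. The median GC content was 40.3% at the 82 ends and 39.6% at the 72.

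Among the 82 ends, the 10 with the highest mean fold enrichment over the untreated libraries are described first. DAPK1 (chr9:87707634-87709634), a kinase with a role in cell death, had a fold enrichment of 7.52 and 6.54 for WT, and of 9.75 and 8.78 for MT. A peak of 3.15 was also called in WT RNH1 replicate 2, so the bona fide peak of WT replicate 2 was a weaker neighbour of 4.61. PLAT, tissue plasminogen activator, had 7.17 and 8.51 for WT and 8.03 and 5.05 for MT, its summit lying in an exon of the gene, and no RNH1 peak. GGTA1, a galactosyltransferase gene, had 9.91 and 8.42 in WT against 5.97 and 4.24 in MT. HBE1, the embryonic epsilon globin, had 8.33 and 9.10 in WT against 4.77 and 5.74 in MT. THRB (chr3:24116153-24118153), a thyroid hormone receptor, had 7.52 and 6.004 in WT and 4.65 and 6.47 in MT, which overlapped. OSGEPL1, a mitochondrial tRNA-modifying enzyme, had 6.51 and 5.46 in WT and 8.42 and 7.09 in MT. None of these last 5 genes had a peak in an RNH1 list. Differences between the genotypes at single ends were not tested. The share of the 82 ends at which the genotypes did not overlap was not counted. Fold enrichment is also relative to the background of each library.

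SLC6A5, a glycine transporter, and ZNF333, a zinc finger protein, had their highest peaks in MT, at 7.67 and 8.03 and at 8.36 and 8.35, against 5.54 and 4.46 and 4.50 and 3.91 in WT. Both also had RNH1 peaks in MT, of 3.73 and 3.66 and of 5.62 and 7.84, and SLC6A5 had 4.73 in WT RNH1 replicate 2. The highest peak was not always the bona fide one. For ZNF333 the bona fide peaks had 4.50 and 3.91 in WT but 3.08 and 3.22 in MT, the opposite order, and for SLC6A5 they had 5.54 and 4.44 in WT and 7.67 and 2.997 in MT, which overlapped. OR51A7, an olfactory receptor, had 4.99 and 6.22 in WT and 6.05 and 6.52 in MT. ZNF664, another zinc finger protein, had 6.18 and 7.01 in WT and 5.13 and 5.40 in MT. Of the 10 summits, 8 lay past the end of the gene, between 121 and 1024 bases from it. Those of HBE1, OSGEPL1, OR51A7 and ZNF664 lay in an intron of another protein-coding gene, and that of ZNF333 in an exon of one. The OSGEPL1 summit, at 1024 bases, was just outside the region.

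Ends bona fide in both MT lists that lacked any untreated WT peak numbered 597, which is 3.91% of ends, against 4.17% of tiles. Ends with the opposite pattern numbered 201, which is 1.32%, against 1.64% of tiles. Both shares were near those of the tiles. With 30000 peaks per list the counts were 70 and 91. Equal list lengths remove any genome-wide excess of MT peaks by design, so these counts do not test the larger number in MT. When the summit had to lie inside the region they were 462 and 168, and with the starts of all transcripts left out 491 and 165. The 201 WT ends had a lower median GC content than the 597 MT ends, 37.2% against 40.5%, and a difference of this kind was also present between all ends with a WT and with an MT peak (38.8% and 39.0% against 40.2% and 39.98%).

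The highest peaks among the 597 were at LRP11, a receptor of the LDL receptor family, with fold enrichments of 12.5 and 11.97 in the MT untreated libraries. F2R, the thrombin receptor, followed with 10.8 and 10.5, and FAM151B with 10.3 and 9.82. The summit of the LRP11 peak lay further than 1 kb inside the gene, so only the edge of this peak reached the region. BDNF (chr11:27653893-27655893), a neurotrophin, had 9.53 and 9.90, with the summit 561 bases past the end. ITSN1, an endocytic scaffold, had 9.08 and 8.60, EPHX4, an epoxide hydrolase, 7.75 and 9.53, and SEL1L3 8.64 and 8.60. These 7 ends had no peak in any WT or RNH1 list. CDK14, a cyclin-dependent kinase, had 7.80 and 10.1 in the MT untreated lists but 13.6 and 13.2 in the MT RNH1 lists. The highest CDK14 peak was therefore not bona fide, and the bona fide peaks of its region were of 5.25 and 3.24.

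Among the 201, TSPAN13, a tetraspanin, had fold enrichments of 11.8 and 11.5 in the WT untreated libraries. TRAT1 (chr3:108854005-108856005), an adaptor of the T cell receptor, had 10.8 and 12.3, and CYP3A5, a drug-metabolizing cytochrome, 10.7 and 10.3. SEC14L1, a lipid-binding protein, had 10.2 and 9.81, and IGFL3 8.18 and 10.1, with the IGFL3 summit also outside the region. LONRF1 had 7.01 and 11.2, the widest spread of the 8, PREPL, a serine hydrolase, 8.88 and 8.69, and GNG12, a G protein subunit, 9.50 and 7.71. None of these 8 ends had a peak in any MT or RNH1 list. At TSPAN13, CYP3A5, LONRF1 and GNG12 the summit lay in an exon of the gene.

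Among the 72 ends with a peak in all 8 lists, the 5 with the highest mean in the RNH1 libraries were SLC35D2, NEUROD1, SGO1, BEST3 and SERPINB8. This choice by itself favours high values after RNH1, so values above the untreated ones are no result about the 72 ends. SLC35D2 (chr9:96312444-96314444), a nucleotide sugar transporter, had 9.10, 7.27, 5.76 and 7.66 in the untreated WT and MT lists and 12.3, 14.2, 15.8 and 15.3 after RNH1. NEUROD1, a transcription factor of neurons and islet cells, had 17.9 and 16.3 in MT RNH1, against 10.1 and 12.4 in MT untreated, 8.57 and 8.41 in WT untreated and 7.32 and 9.09 in WT RNH1, in a peak whose summit lay outside the region. SGO1, which protects cohesion at centromeres, varied little, from 11.2 to 13.7 over the 8 lists. BEST3, a chloride channel, rose no higher than 9.38 in WT RNH1 but reached 15.2 and 17.2 in MT RNH1. SERPINB8, a protease inhibitor, had 5.41 to 7.16 untreated and 8.23, 9.78, 14.2 and 14.7 after RNH1. Fold enrichment is relative to each library's own background, so a higher value after RNH1 does not give the amount of DNA recovered.

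**Figure D5:**
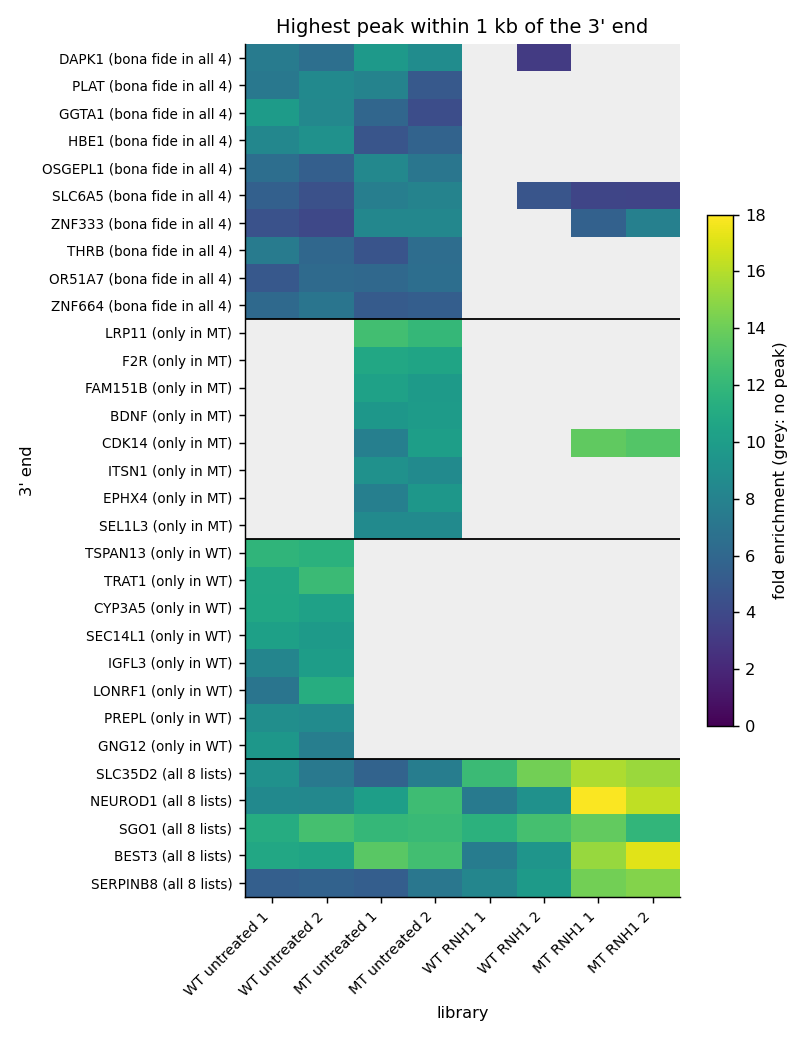
Fold enrichment (colour scale; grey, no peak) of the highest peak within 1 kb of each named 3' end (rows, by the rule that named them) in each library (columns). The 8 ends under WT have values only in the 2 WT untreated lists, CDK14 is the only one of the 8 under MT with RNH1 peaks, and the last 5 rows have values in all 8 lists.

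Genes whose ends are known from other work to carry R-loops at termination were looked up next, from a fixed list of 7. The ends of ACTB (beta-actin), CCNB1 (cyclin B1), ENSA, AKIRIN1 and BRCA1 were kept by the rule, and none had a peak in any of the 8 lists, which was also true of 73.8% of all ends. GEMIN7 and GAPDH were left out because a start site was nearby, and they had no peak within 1 kb of the end either. With the depth unknown, weaker enrichment was not detectable in these lists.

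Of 19 genes discussed in the study, 13 had an end that was kept, and 9 of these had no peak in any list, against 73.8% of all ends. SF3B1 itself had a peak in the 2 MT untreated lists, of 4.20 and 4.85, and none in WT or after RNH1, with its summit in an exon of the gene. STAU1, an RNA-binding protein of RNA decay, had 5.24 and 4.09 in the MT untreated lists, with the summit 60 bases past the end. UQCRB, a subunit of respiratory complex III, had 5.92 and 7.95 in WT and 4.63 and 2.87 in MT, and RNH1 peaks of 6.61 and 3.41 in the second replicate of each genotype. ATM, a kinase of the DNA damage response, had 3.51 in WT replicate 1 and no other peak. DYNLL1, left out by the rule, had 6.53 and 4.53 in the MT untreated lists and 3.10 in MT RNH1 replicate 2.

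The gene groups were described without a test. Any untreated peak was found at 23.7% of all ends, and in the groups of more than 20 ends the share ran from 20.3% in potassium channels to 37.9% in SR and hnRNP proteins, whose median GC content was 38.5%. In cytosolic ribosomal protein genes it was 12 of 44 ends, in mitochondrial ribosomal protein genes 16 of 51, in proteasome subunits 8 of 28 and in respiratory complex I 7 of 25. RPS10, of the small ribosomal subunit, had a peak in all 8 lists, from 3.66 to 10.1, none of the untreated ones bona fide. Its highest peak had its summit 1330 bases past the end, outside the region and in an intron of another protein-coding gene. RPL34 had 5.26 and 6.95 in WT and 3.36 in MT replicate 2. RPL39L had 3.39 in WT replicate 2, 7.41 and 8.07 in MT and 5.97 and 5.94 in MT RNH1, and RPL32 had 4.63 and 5.04 in the MT untreated lists only. The summit of the higher RPL32 peak lay 1235 bases past the end, also outside the region and in an intron of another protein-coding gene. MRPL42 was bona fide in all 4 libraries, with 6.23 and 6.27 for WT and 4.21 and 5.78 for MT. The proteasome gene PSMD7 had 5.60 and 5.09 in WT untreated but 9.57 and 12.7 in WT RNH1 and 14.1 and 11.1 in MT RNH1, and none of these peaks was bona fide.

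Of 29 SR and hnRNP protein genes, which regulate splicing, 11 had an untreated peak. HNRNPU had peaks in all 4 untreated lists, from 4.22 to 5.24, but also 4.71 in WT RNH1 replicate 2 and 8.82 and 7.35 in MT RNH1. SRSF5 had 3.51 and 4.07 in WT and 4.38 and 4.75 in MT and no RNH1 peak within 1 kb of the end. The SRSF5 peak of 4.75, in MT replicate 2, was not bona fide, since it overlapped an RNH1 peak lying beyond 1 kb of the end. The summit of the peak of 4.75 lay further than 1 kb inside the gene. Of the 5 ends of SF3A and SF3B genes, SF3B6 had a peak of 3.98 and 3.54 in the WT untreated lists and none in MT, the opposite of SF3B1. Among 32 genes of R-loop resolution and termination, 8 had an untreated peak, and 1 belonged to the 597, DHX36, a helicase of G-quadruplexes, with 4.87 and 7.29. DHX9, another helicase, had 4.21 in WT replicate 2 only, CPSF2, of the cleavage complex, 4.11 in MT replicate 2 and 5.78 and 6.46 in MT RNH1, and PABPN1, a poly(A)-binding protein, peaks in 7 lists from 5.12 to 7.99.

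Zinc finger (ZNF) genes had an untreated peak at 105 of 442 ends (23.8%), solute carriers at 70 of 293 (23.9%), potassium channels at 16 of 79, glutamate and GABA receptors at 9 of 35, and collagens at 9 of 43. SLC22A11, an organic anion transporter, had 10.1 and 10.98 in WT and 12.2 and 14.1 in MT, and lower RNH1 peaks of 6.04 in WT replicate 2 and of 6.53 and 6.002 in MT. ZNF24 and ZNF281 were lower in WT (3.32 and 4.06, and 4.64 and 5.15) than in MT (9.14 and 8.77, and 8.55 and 9.08), and both also had MT RNH1 peaks, ZNF24 of 9.74 and 10.1 and ZNF281 of 7.92 in replicate 1. KCNJ13 had 8.22 and 9.91 in MT only, in peaks that overlapped RNH1 peaks lying beyond 1 kb of the end. The summit of the peak of 9.91 lay 1209 bases past the end, in an exon of another protein-coding gene. Of 18 genes of common fragile sites, which are very long, 4 had an untreated peak (22.2%, against 23.7% of all ends). These were CTNNA3, FHIT, MACROD2 and DMD, all in MT and from 2.99 to 4.46. The MT lists had 5.56% and 22.2% of the 18 ends. Over all ends, MT shares (14.8% and 16.6%) were also above WT shares (7.14% and 7.56%). FHIT and MACROD2 also had MT RNH1 peaks of 4.26 and 3.32.

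Of 15 ends of B-lineage genes, 1 and 0 had a peak in the WT untreated lists and 4 and 4 in the MT untreated lists. Over all ends the shares were 7.14% and 7.56% in the WT lists and 14.8% and 16.6% in the MT lists, so that more MT than WT peaks were found there too. POU2AF1, a B cell coactivator, had 4.04 in WT replicate 1 and 3.72 and 4.64 in MT, and BLNK and MME had peaks in both MT lists, of 4.29 and 3.92 and of 3.22 and 4.87. Of 14 ends of genes that mark other cell types, 2 and 2 had a peak in WT and 2 and 3 in MT. COL1A1, a collagen of connective tissue, had 5.90 and 6.02 in WT, 5.10 and 7.29 in MT and 6.63 and 6.12 in WT RNH1, and CD3E, of the T cell receptor complex, 3.20 and 3.42 in WT and 2.84 in MT replicate 2. The summit of the highest CD3E peak lay 1108 bases past the end, outside the region. None of the B-lineage ends had an RNH1 peak, and 1 of the other ends besides COL1A1 had one, in MT RNH1 replicate 1.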

How the data were processed

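Members and gene lists were chosen with earlier results of these data known. Per the study's methods, the authors mapped DRIP-seq reads (BWA-MEM, GRCh38), left out mitochondrial and duplicate reads and called peaks in each library with MACS2; the deposited lists hold no q-value above 0.01, a stricter limit than the cutoff those methods state. The deposited lists give for each peak a fold enrichment (a ratio to the local background) together with −log10 p and −log10 q values. The deposited HEK293T junction table (3 WT and 3 MT libraries, aligned with STAR) gives a junction-read signal per event as the authors' mean over WT libraries; its inclusion differences, p-values and FDR are the authors' own comparisons and were not used.

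Overlaps were computed with Python 3.11.15, numpy 2.4.6, pandas 2.3.3 and pyfaidx 0.9.0.4, and tested on simulated lists. Regions, tiles and gene middles had 2001 bases, and GC weights used bins of 2.5%. Libraries were grouped by their labels. Exact two-sided permutation tests over libraries compared the genotypes, and exact sign-flip permutation tests the paired values, with Benjamini-Hochberg adjustment over 10 tests, of which 2 (the untreated minus RNH1 log2 ratio and the bona fide share) were added after the data were seen. None of these tests could fall under 0.05. Per the study's methods, part of the fragmented DNA received RNase H, but neither these nor the labels say that the same number marks parts of 1 preparation. Untreated and RNH1 lists were matched by number, and their replicate differences correlated by 0.0048 (WT) and 0.0124 (MT), within the range of all group pairs (-0.0065 to 0.0175), so these values do not show pairing.

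Ends were named by rule: the 10 highest bona fide in all 4 libraries, the 8 highest in only MT and only WT, the 5 highest after RNH1 among those in all 8 lists, all members of the termination and study lists, and up to 4 of each other list. Alternatives changed peak strength, list length, overlap, region width, start sites, RNH1 subtraction, tiles, replicates and pairing.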

Additional observations from a re-analysis of the deposited data

How the results depend on the processing

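With the 30000 highest peaks of each list, the bona fide difference between MT and WT reversed to -0.0328 percentage points, and the ends only in MT and only in WT numbered 70 and 91. Lists of equal length hold no genome-wide excess of MT peaks by design. The log2 ratio over tiles, MT minus WT, reversed to -0.0136 with 500 bases to each side and to -0.0155 with GC-weighted tiles. The GC skew difference reversed in 8 of 15 alternatives: 5.32e-05 (−log10 q of at least 5), 0.00264 (30000 peaks), 0.00208 (200 bases shared), 0.00361 (summit inside), 0.00359 (500 bases), 0.000259 (2 kb), and 0.000962 and 0.000288 without MT untreated replicate 1 or 2. Without WT untreated replicate 1 or 2 it kept its sign, at -0.00083 and -0.000906. The ends only in MT numbered 360 with a fold enrichment of at least 4, 369 with 500 bases, 985 with 2 kb, 1152 without subtraction, and 644 to 1176 without 1 library (1176 and 1013 without MT replicate 1 or 2). Those only in WT numbered 224 to 404 without 1 library (404 and 384 without WT replicate 1 or 2). In these counts fewer lists had to agree.

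The replicate block left the genotype differences in the share with an untreated peak at 8.32, with a bona fide peak at 3.75 percentage points and in the log2 ratio at 0.03, each with an exact permutation p of 0.5, the smallest for 2 pairs. Without the replicate block, the untreated minus RNH1 log2 ratio of 0.37 had an exact permutation p of 0.0286, and no other call changed. In the mean over libraries under every alternative run, the ends stayed below gene middles (-3.38 to -0.400 percentage points), the bona fide share stayed above that of all peaks (by 5.21 to 8.49) and the untreated minus RNH1 log2 ratio stayed positive (0.25 to 0.46). Base coverage takes no overlap rule, so those alternatives were not run for it. Leaving out 1 library of 2 gives a genotype value with no test. Depth is unknown, and an end without a peak may hold hybrids below detection.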
